A study of Danio rerio with 2 samples.

Results

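Genes of thyroid hormone production and conversion, together with the transcription factor gene foxe1, were followed in zebrafish embryos exposed to cyproconazole, a triazole fungicide. They are the 10 rows, of 23809 genes in the deposited table, whose symbol is foxe1, tg, tpo, tshr, nkx2.4b, pax8, slc5a5, duox, dio1 or dio2. The genes were picked with their values in these libraries already known, so the differences below are descriptions and not tests. One library came from embryos kept in 20 µM cyproconazole from 4 hours to 3 days post fertilization, and 1 from untreated embryos of the same age, for which no vehicle is named. Each library was made from poly-A RNA of 40 pooled whole embryos, and both groups carried the genotype SAGFF(LF)53A mitfab692/+, which is heterozygous at the pigment cell gene mitfa. With 1 library per group no difference has a replicate check, and every ratio compares these 2 libraries rather than the conditions.

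Thyroid follicle cells take up iodide, attach it to the large protein thyroglobulin and release thyroid hormone from it under the control of pituitary thyrotropin. Deiodinases in other tissues then activate or inactivate the hormone, which acts through nuclear receptors. In zebrafish embryos the follicle cells lie in a small group in the pharynx, so their transcripts are a minor part of whole-embryo RNA, and several of the 10 genes are also used elsewhere: pax8 in the kidney and ear, nkx2.4b in the hypothalamus, duox in gut epithelium and the deiodinases in liver and brain. In bulk RNA, fewer cells of a type and less RNA per cell cannot be told apart.

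Each gene has an FPKM and a read value. FPKM is the authors' level per transcript length and sequencing depth. Reads are whole counts worked back from the table's mean counts and log2 ratios, and they sum to 20726375 in genes for the cyproconazole library and 18067935 for the control library. The read ratio is cyproconazole over control, scaled between libraries. Its 95% interval, exact and conditional on the gene's total, holds counting error alone. The interval treats reads as independent, and since reads are not independent molecules it can be too narrow even for that error. Together the 10 genes had 817 reads in the cyproconazole library and 908 in the control library, so their precision is set by small counts. The general transcripts actb1 and eef1a1l1 had read ratios of 1.04 and 1.04, and mitfa had 1.2 (0.945 to 1.53).

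**Figure D1:**
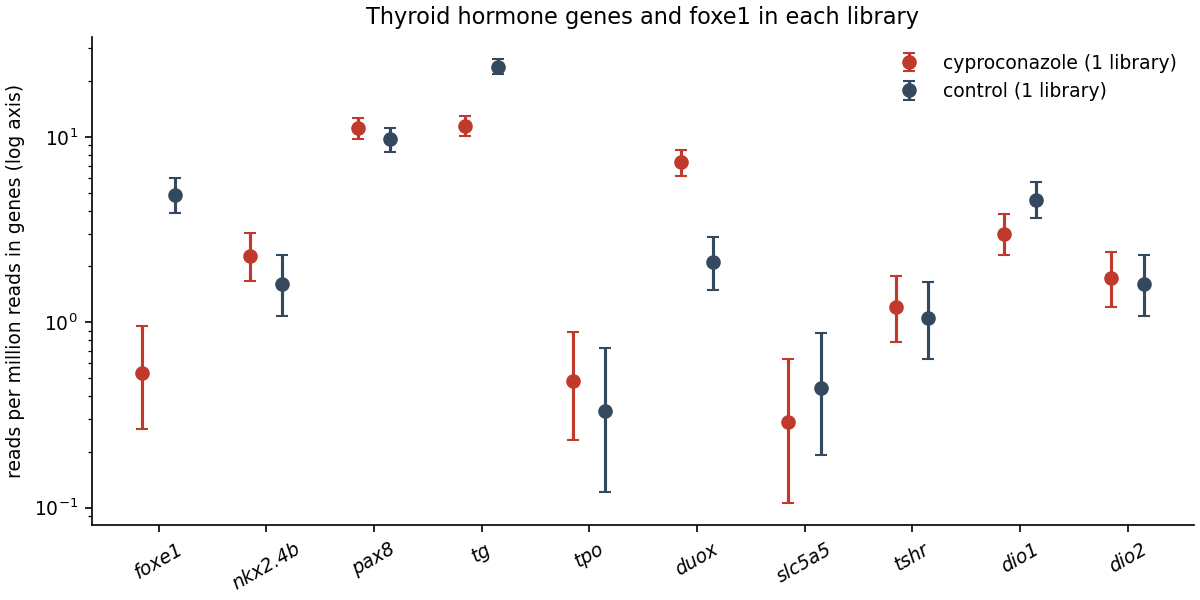
Reads, scaled to the total reads in genes, for each gene (log axis) in the cyproconazole library (red, left of each pair) and the control library (dark, right); bars are exact Poisson 95% intervals of the counts, which cover counting error only. For tpo and slc5a5, with 16 and 14 reads over both libraries, the intervals are wide.

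Among the transcription factor genes, foxe1 was far lower with cyproconazole, while the counting intervals of nkx2.4b and pax8 both held 1. Which cells gave the foxe1 reads, thyroid or other, cannot be told from whole-embryo RNA. The forkhead gene foxe1 (ENSDARG00000079266), which in mammals is needed for the thyroid gland to migrate and in zebrafish is expressed in the pharynx, had 0.352 FPKM in the cyproconazole library and 3.02 FPKM in the control library. These values rested on 11 reads (Poisson interval 5.49 to 19.7) in the cyproconazole library and 88 reads (70.6 to 108) in the control library. The read ratio of 0.109 (0.0523 to 0.204) corresponds to a 9.20-fold lower read level, and the FPKM ratio was 0.116. Of 18633 genes with at least 50 reads, 2 had a lower read ratio than foxe1. Counting error leaves this rank open, since the interval of foxe1 also covers the ratios of epd (0.111) and pcolceb (0.113).

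The homeobox gene nkx2.4b (ENSDARG00000104107), a relative of the mammalian thyroid transcription factor gene Nkx2-1 that is used in thyroid and forebrain, had 1.79 FPKM and 47 reads in the cyproconazole library and 1.36 FPKM and 29 reads in the control library. Its read ratio was 1.41 (0.869 to 2.32), and at this depth no difference could be detected. The paired-box gene pax8 (ENSDARG00000015879), which directs thyroid and kidney cell fate, had 4.0 FPKM and 231 reads with cyproconazole and 3.48 FPKM and 175 reads without. For pax8 the read ratio of 1.15 (0.939 to 1.41) has an upper bound of 1.41 from counting error. Set against pax8 within the same libraries, which needs no scaling, foxe1 was lower by a ratio of 0.0951 (0.0444 to 0.186), and against nkx2.4b by 0.0786 (0.0322 to 0.178). The summed reads of nkx2.4b and pax8 had a ratio of 1.19 (0.985 to 1.43).

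Among the genes of hormone synthesis, thyroglobulin was lower and dual oxidase higher with cyproconazole. Thyroglobulin, tg (ENSDARG00000020084), is the protein on which the hormone is built and is made by follicle cells. It had 1.10 FPKM and 238 reads in the cyproconazole library and 2.29 FPKM and 433 reads in the control library. Its read ratio was 0.478 (0.406 to 0.561), with an FPKM ratio of 0.479. The tg reads carried 85.3% of the reads of the follicle genes tg, tpo, tshr and slc5a5 in the cyproconazole library and 92.9% in the control library, so a sum over these genes mainly repeats tg. Without tg, the 3 others had 41 reads with cyproconazole and 33 in the control, a ratio of 1.08 (0.666 to 1.76).

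The dual oxidase gene duox (ENSDARG00000062632), whose product makes the hydrogen peroxide used to iodinate thyroglobulin and also serves in gut and skin epithelium, was the gene with the highest read ratio of the 10. It had 1.15 FPKM and 151 reads (Poisson interval 128 to 177) in the cyproconazole library and 0.333 FPKM and 38 reads (26.9 to 52.2) in the control library. The read ratio was 3.45 (2.41 to 5.07) and the FPKM ratio 3.45, and 10 genes with at least 50 reads had a higher read ratio. Counting error leaves that rank open too, since the interval also covers the ratio of tcf21 (3.38). Relative to tg in the same libraries, duox was higher by 7.21 (4.84 to 11.0). In the RefSeq order of assembly GRCz12tu the protein-coding gene next to duox is its paralog duox2. No row was matched for duox2 here, so whether the duox reads include reads of duox2 is not known.

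The other synthesis genes were too shallow to read a direction. Thyroid peroxidase, tpo (ENSDARG00000033280), which attaches iodine to thyroglobulin, had 0.195 FPKM and 10 reads with cyproconazole and 0.148 FPKM and 6 reads in the control, a read ratio of 1.45 (0.477 to 4.85). The iodide transporter slc5a5 (ENSDARG00000005392) had 0.151 FPKM and 6 reads with cyproconazole and 0.188 FPKM and 8 reads in the control (0.652, 0.186 to 2.14). The thyrotropin receptor tshr (ENSDARG00000037195), through which the pituitary stimulates the gland, had 0.40 FPKM and 25 reads with cyproconazole and 0.346 FPKM and 19 reads in the control (1.14, 0.605 to 2.20). All 3 intervals held 1 and reached past 2-fold in at least 1 direction. Within the same libraries the ratio of tg was 0.418 times that of tshr (0.213 to 0.809).

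For the deiodinases dio1 and dio2 the FPKM and read ratios lay far apart, and for dio1 they lay on opposite sides of 1. The gene dio1 (ENSDARG00000042112), an enzyme that both activates and clears thyroid hormone, had 508 FPKM in the cyproconazole library and 74.3 FPKM in the control library, an FPKM ratio of 6.84. The reads behind these values numbered 62 with cyproconazole and 83 in the control, a read ratio of 0.649 (0.460 to 0.913), which lies below 1. The gene dio2 (ENSDARG00000094857), which converts the prohormone thyroxine to the active hormone, had 6.51 FPKM with cyproconazole and 0.857 FPKM in the control, an FPKM ratio of 7.59. Its reads numbered 36 with cyproconazole and 29 in the control, a read ratio of 1.08 (0.643 to 1.82). The pair did not differ from each other by reads beyond counting error, at 0.603 (0.319 to 1.13) for dio1 relative to dio2.

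**Figure D2:**
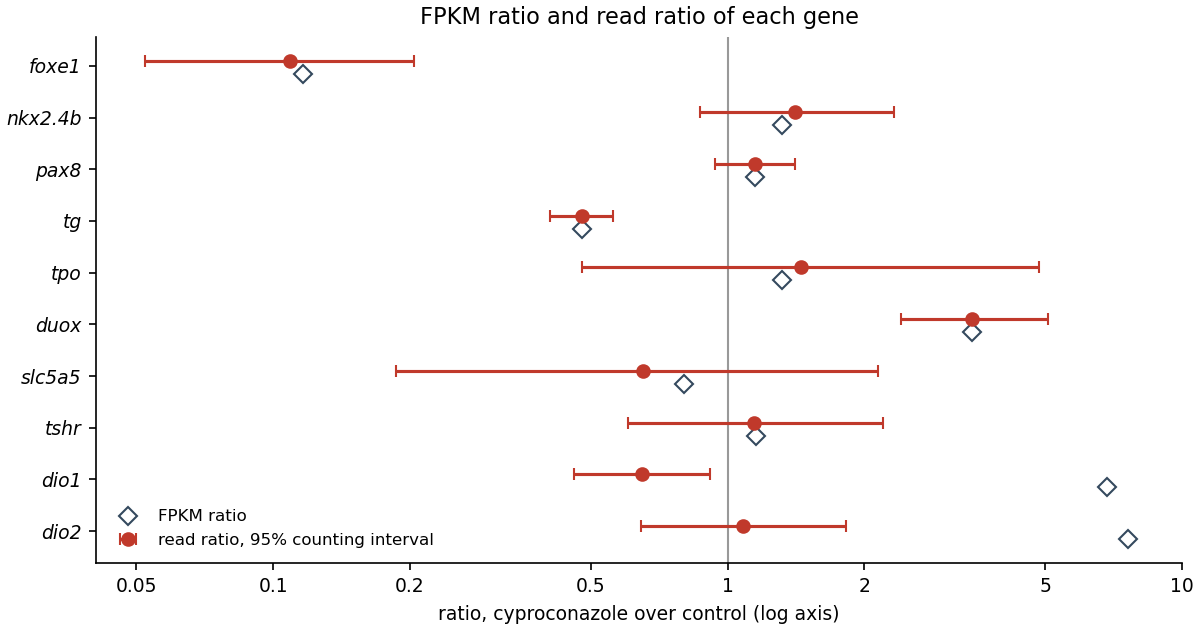
Ratio of cyproconazole over control (log axis) for each gene, as a read ratio with its 95% counting interval (filled circles) and as an FPKM ratio (open diamonds). The measures lie close together for 8 genes and far apart for dio1, at 0.649 by reads and 6.84 by FPKM, and for dio2, at 1.08 and 7.59.

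The gap between the measures can be followed as the number of reads behind 1 FPKM. Over 18621 genes with at least 50 reads and an FPKM above 0 in both libraries, the median was 48.8 reads per FPKM in the cyproconazole library and 42.9 in the control library, and the FPKM and read ratios lay within 1.2-fold of each other for 94.0% of genes. For foxe1 there were 31.3 reads per FPKM with cyproconazole and 29.1 in the control, and for duox 131 with cyproconazole and 114.1 in the control. For dio1 there were 0.122 reads per FPKM with cyproconazole and 1.12 in the control, so that its FPKM would place it above 99.1% of all genes in the cyproconazole library on 62 reads. For dio2 the values were 5.53 with cyproconazole and 33.9 in the control. The FPKM ratio was at least 4 times above or below the read ratio for 7 genes, or 0.0376% of those compared, and dio1 and dio2 are among them; the largest of these gaps was that of dock9a, named after its value was seen.

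Both enzymes are selenoproteins, which carry selenocysteine at a stop codon that is read through. In a list of selenoprotein genes written after these values were seen, 25 genes were compared, and 15 of them (60.0%) had fewer than 5 reads per FPKM in both libraries, against 0.644% of all genes compared. The median of these 25 was 2.14 reads per FPKM in the cyproconazole library and 1.85 in the control library. The selenoprotein gene sepw1 had the highest FPKM of the whole table in both libraries, 24699 on 4084 reads with cyproconazole and 23847 on 3598 reads in the control. In sepw1 the measures lay close, with an FPKM ratio of 1.04 and a read ratio of 0.987 (0.943 to 1.03). Of the 25 genes, 21 had FPKM and read ratios within 1.5-fold of each other, whereas 94.0% of all genes compared lay within the tighter 1.2-fold. Besides dio1 and dio2, the selenoprotein genes beyond 1.5-fold were selm, with an FPKM ratio of 2.11 and a read ratio of 1.07 (0.938 to 1.21), and gpx3, with 0.762 and 1.16 (0.939 to 1.42). Of the deiodinases, dio1 was under 5 reads per FPKM in both libraries and dio2 in neither. Whether the read-through stop codon has a part in these values was not tested. The remaining deiodinase measured, dio3b, which inactivates the hormone, had 77.6 reads per FPKM with cyproconazole and 64.6 in the control. Its 165 reads with cyproconazole and 174 in the control gave a ratio of 0.824 (0.662 to 1.03).

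**Figure D3:**
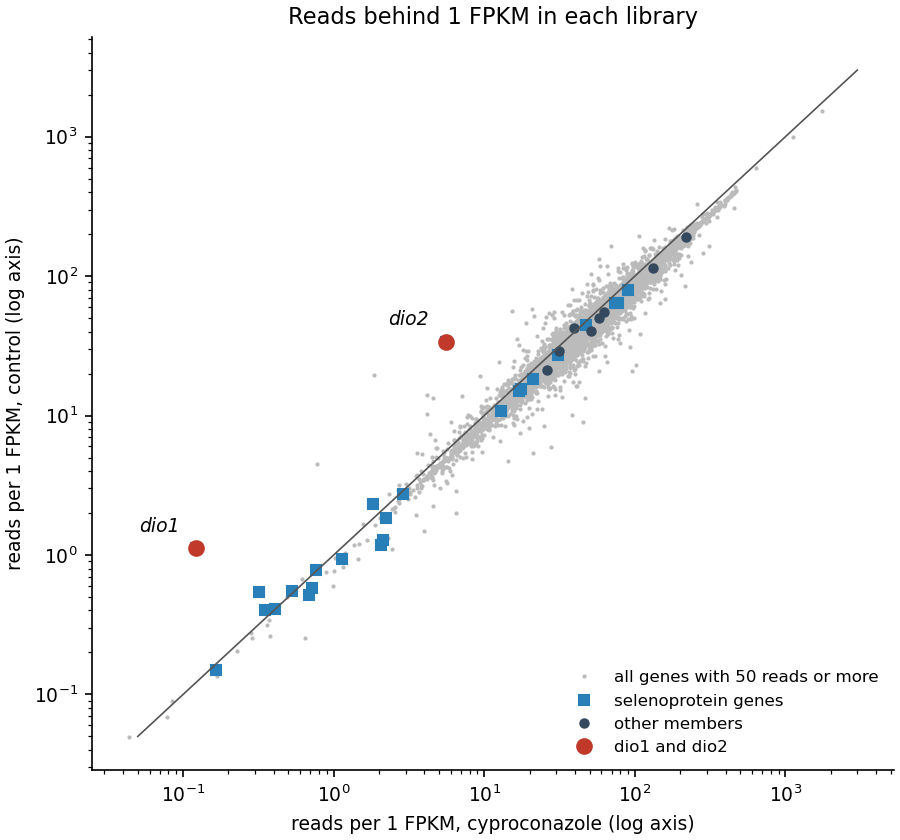
Reads behind 1 FPKM in the cyproconazole library (x) and the control library (y), both on log axes; grey points are genes with at least 50 reads, blue squares selenoprotein genes, dark circles the other 8 thyroid genes and foxe1, and the line marks equal values. Most selenoprotein genes sit at the low end but near the line, whereas dio1 (0.122 with cyproconazole, 1.12 in the control) and dio2 (5.53 with cyproconazole, 33.9 in the control) sit away from it.

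Of the 10 genes, 7 had at least 50 reads over both libraries, and tpo, tshr and slc5a5 did not. On the log2(FPKM + 1) scale, which understates the change of low genes, 3 of the 7 (duox, dio1 and dio2) were at least 1.5-fold higher with cyproconazole, where 1.58% of all genes compared were, and 2 (foxe1 and tg) at least 1.5-fold lower, where 1.71% were. By reads, 1 (duox) was at least 1.5-fold higher, against 2.86% of genes, and 3 (foxe1, tg and dio1) at least 1.5-fold lower, against 3.13%. The counting interval lay above 1 for duox, as for 15.8% of genes, and below 1 for foxe1, tg and dio1, as for 14.5%. Since the genes were chosen on this contrast, nothing is read from these counts.

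**Figure D4:**
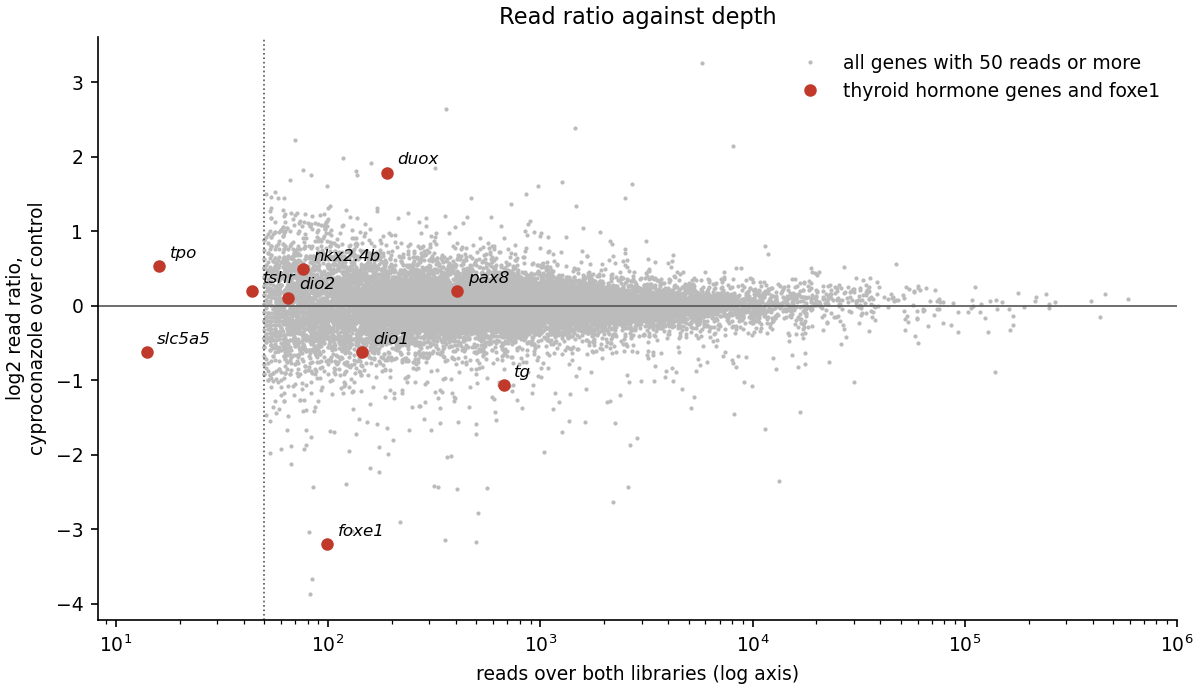
Log2 read ratio of cyproconazole over control against the reads over both libraries (log axis) for all genes with at least 50 reads and an FPKM above 0 (grey) and for the 10 genes (red, named); the dotted line marks 50 reads. At a depth of 99 reads foxe1 lies at -3.20, near the lower edge of all genes, and at 189 reads duox lies at 1.79, near the upper edge.

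By FPKM level, leaving out dio1 and dio2 because of the gap described above, the order in the cyproconazole library was pax8 (4.0), nkx2.4b (1.79), duox (1.15), tg (1.10), tshr (0.40), foxe1 (0.352), tpo (0.195) and slc5a5 (0.151). In the control library the order was pax8 (3.48), foxe1 (3.02), tg (2.29), nkx2.4b (1.36), tshr (0.346), duox (0.333), slc5a5 (0.188) and tpo (0.148). For each neighbouring pair the ratio of FPKM levels was given a counting interval of its own. In the cyproconazole library it lay above 1 for pax8 over nkx2.4b (2.23, 1.63 to 3.12), nkx2.4b over duox (1.56, 1.10 to 2.17) and tg over tshr (2.74, 1.81 to 4.32). In the control library it lay above 1 for foxe1 over tg (1.32, 1.04 to 1.67), tg over nkx2.4b (1.68, 1.15 to 2.54) and nkx2.4b over tshr (3.93, 2.13 to 7.41). For the other neighbours the interval held 1. Of these 8 genes foxe1 differed most in place: it was above 11.6% of all genes in the table with cyproconazole and above 40.9% in the control library.

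The authors' deposited table gives a log2 ratio that is shrunken towards 0, and its sizes do not follow the reads for these genes. In the authors' deposited table foxe1 had -0.044 (standard error 0.046), tg -0.11 (0.10), duox 0.073 (0.071) and pax8 0.085 (0.17), so that foxe1 is nearer to 0 there than pax8 is. The dispersion that the deposited values imply was 1.46 for foxe1, 0.584 for duox and 0.0319 for pax8. The unadjusted p-values in the authors' deposited table lay between 0.307 (duox) and 0.905 (dio2) for the 10 genes; no use was made of them, since each group has a single library.

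The genes whose read ratio was nearest to that of foxe1, over these 2 libraries, were the ependymin gene epd, the procollagen-processing gene pcolceb and the lectin gene clec3a, with log2 read ratios that differed from it by 0.03, 0.06 and -0.46. For duox they were the transcription factor gene tcf21, the glutathione S-transferase gene gstp2 and the retinaldehyde reductase gene dhrs3b, which differed by -0.03, 0.06 and -0.12. For gstp2 the FPKM values, 39.7 with cyproconazole and 31.1 in the control, lay closer together than its reads, 256 with cyproconazole and 62 in the control. With 2 libraries this likeness is a single ratio per gene.

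Around the 10 genes, a few other genes of hormone synthesis and regulation differed, at low depth. The list of synthesis genes and thyroid regulators, which holds 8 of the 10, had 12 genes with at least 50 reads. Of these, 2 were at least 1.5-fold higher by reads (duox and glis3) and 3 lower (foxe1, tg and iyd), with a median read ratio of 1.1, against 1.005 over all genes. On the FPKM scale 2 were higher (duox and pax2b), against 1.58% of all genes, and 2 lower (foxe1 and tg), against 1.71%. The read ratio of pax2b was 1.13 (0.911 to 1.39). Over all genes with at least 50 reads, 2.86% were at least 1.5-fold higher by reads and 3.13% lower, for this list and those below. Since duox, foxe1 and tg were chosen on this contrast, and the lists with earlier results known, nothing is read from these counts. The iodide-recycling enzyme iyd had 24 reads with cyproconazole and 39 in the control (0.535, 0.308 to 0.912). The transcription factor glis3, which is needed for thyroid hormone production in mammals, had 72 reads with cyproconazole and 35 in the control (1.79, 1.18 to 2.76).

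Upstream control and transport were covered by 2 lists. Of 8 genes of the hypothalamus and pituitary with at least 50 reads, the median read ratio was 1.2, with 1 gene past 1.5-fold upwards and 0 downwards. The higher gene was trhra, a receptor for thyrotropin-releasing hormone, with 53 reads with cyproconazole and 22 in the control (2.09, 1.25 to 3.62). On the FPKM scale 0 genes of this list passed 1.5-fold. The transcription factor gene gata2a, which acts in pituitary cells and in many other tissues, was at 1.39 (1.19 to 1.62). The thyrotropin beta subunit gene tshba, below the minimum of reads, had 24 reads with cyproconazole and 9 in the control (2.32, 1.04 to 5.67), and its partner subunit gene cga had 38 reads with cyproconazole and 28 in the control (1.18, 0.705 to 2.0). Of 7 genes of hormone transport, 0 passed 1.5-fold in either direction by reads, with a median of 0.964. The organic anion transporters slco1c1, which carries thyroxine, and slco2b1 were at 0.755 (0.609 to 0.935) and 0.718 (0.607 to 0.849), and the amino acid transporter slc7a8a was at 0.864 (0.813 to 0.918).

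The nuclear receptors and their cofactors were close to equal. Of 16 genes 0 passed 1.5-fold in either direction by FPKM or by reads, with a median read ratio of 1.03. The thyroid hormone receptor genes were at 0.928 (0.717 to 1.2) for thraa, 0.829 (0.681 to 1.01) for thrab and 1.07 (0.986 to 1.15) for thrb. The coactivator gene ncoa3 was at 1.28 (1.2 to 1.36). The retinoid X receptor genes, whose products pair with thyroid hormone receptors, were at 1.16 (1.04 to 1.30) for rxraa, 1.15 (1.06 to 1.24) for rxrba and 1.34 (1.09 to 1.67) for rxrga. The list of genes known to respond to thyroid hormone in other settings was chosen with earlier results known, and nothing is read from its counts. Over all genes, 3.13% were at least 1.5-fold lower by reads and 2.86% higher. Of 7 genes on this list with at least 50 reads, 2 were at least 1.5-fold lower by reads and 0 higher, with a median of 0.821. They were the transcription factor gene klf9, which also responds to glucocorticoids, with 252 reads with cyproconazole and 527 in the control (0.416, 0.356 to 0.484), and the red cone opsin gene opn1lw2 at 0.631 (0.611 to 0.651). On the FPKM scale opn1lw1 of that list was also past 1.5-fold, and its read ratio was 0.821 (0.634 to 1.06). The myelin gene mbpa was at 0.754 (0.641 to 0.886).

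**Figure D5:**
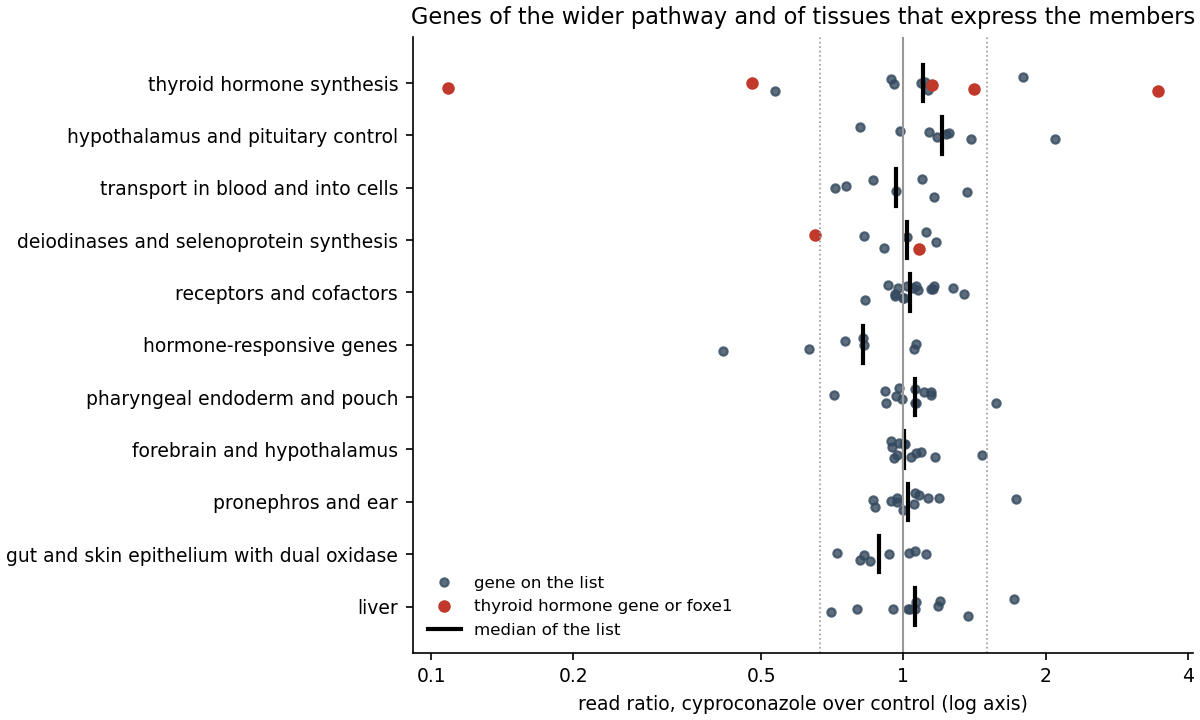
Read ratio of cyproconazole over control (log axis) for genes with at least 50 reads on 11 lists of the thyroid axis and of tissues that express the 10 genes; red points are the 10 genes, black bars list medians and dotted lines 1.5-fold. The medians lie between 0.821 and 1.2, and foxe1, at 0.109, is the lowest point of all lists.

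Tissues in which these genes are also expressed had list medians near 1. The counts given for them are by reads. On the FPKM scale pax2b, wt1a and hpx were at least 1.5-fold higher and vil1 lower, and no other compared gene of these lists passed 1.5-fold. Over all genes compared, 1.58% were higher and 1.71% lower on that scale. For 13 genes of pharyngeal endoderm and pouches the median read ratio was 1.06, with 1 gene past 1.5-fold upwards (foxi1, 1.57, 0.90 to 2.82) and 0 downwards, and tbx1 was at 0.712 (0.634 to 0.800). Of 12 forebrain and hypothalamus genes 0 passed 1.5-fold, with a median of 1.0, and the neuronal transcription factor gene otpa was at 1.17 (1.06 to 1.3) and the pituitary and hypothalamic hormone gene pomca at 1.47 (1.12 to 1.93). For 12 pronephros and ear genes the median was 1.03, with 1 higher (wt1a, 1.73, 1.36 to 2.22) and 0 lower; the kidney transporter genes slc4a4a and slc12a3 were at 0.862 (0.816 to 0.911) and 1.19 (1.01 to 1.40). The list for the epithelia of gut and skin also holds NADPH oxidase genes that are not markers of these epithelia, such as cybb. Its median was 0.890 over 8 genes, with 0 past 1.5-fold by reads, while duox, which is not on it, was higher. The gut genes vil1, fabp2 and cdx1b were at 0.723 (0.641 to 0.815), 0.810 (0.736 to 0.893) and 1.06 (0.837 to 1.34), and the skin keratin genes krt4 and krt5 at 1.11 (1.11 to 1.12) and 0.849 (0.837 to 0.861). In the liver, a main site of deiodinase expression, the median was 1.06 over 11 genes, of which 1 (hpx, 1.71, 1.5 to 1.96) was past 1.5-fold upwards and 0 downwards. The liver genes fabp10a and tfa were at 0.702 (0.575 to 0.856) and 0.799 (0.785 to 0.813), and cp was at 1.37 (1.31 to 1.44). The summed reads of these 3 liver markers, none at 0, had a ratio of 0.853 (0.839 to 0.866). Of these reads tfa gave 24971 of 29672 with cyproconazole and 27163 of 30254 in the control, so the sum mainly repeats tfa. The median of the 11 liver genes lay on the other side of 1, at 1.06. For dio1 the ratio was 0.649, and the part of liver RNA in it was not tested.

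Cartilage markers were lower with cyproconazole. Their 4 genes (col2a1a, matn1, acana and sox9a) had 56991 summed reads with cyproconazole and 99343 in the control, a ratio of 0.499 (0.494 to 0.504). Of these reads col2a1a gave 53465 with cyproconazole and 85660 in the control, so the sum mainly repeats col2a1a, at 0.5425 (0.5367 to 0.5484). The read ratio was 0.195 (0.187 to 0.204) for matn1, 0.186 (0.168 to 0.206) for acana and 0.860 (0.768 to 0.962) for sox9a. Of the 4 genes, 3 were at least 1.5-fold lower by reads, against 3.13% of all genes, and none was at 0. Nothing is read from this count. The part of cartilage in the foxe1 value was not tested. The follicle markers tg, tpo, tshr and slc5a5 summed to 279 reads with cyproconazole and 466 in the control (0.520, 0.447 to 0.605), none at 0. Of these reads tg gave 85.3% with cyproconazole and 92.9% in the control, and without tg the ratio was 1.08 (0.666 to 1.76). The pituitary thyrotrope markers tshba, cga and pou1f1 summed to 66 reads with cyproconazole and 42 in the control (1.37, 0.914 to 2.06). Of these reads cga gave 38 with cyproconazole and 28 in the control. The ratio of pou1f1 lay on the other side of 1, at 0.695 (0.138 to 3.23), on 4 reads with cyproconazole and 5 in the control.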

How the data were processed

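Poly-A RNA of pooled whole embryos was sequenced, 1 library per group. The submitters' processing notes list Cufflinks 2.1.1, HTSeq 0.6.1, Picard 1.29, SAMtools and TopHat2 2.0.4 and the build GRCz10, with no roles. The sources used here give neither the annotation nor the strand setting. The authors deposited 1 table with an FPKM per library, a mean normalized count (a signal over both libraries), a log2 ratio, its standard error, a test statistic (a score) and an unadjusted p-value, per the file headers; the last 4 columns were not used as tests.

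Whole reads were recovered as follows. The mean counts are whole multiples of 1 step (largest deviation 0.0057 of a step), a control read counting 68 steps and a cyproconazole read 59. Among the pairs of reads that give each mean, the pair was kept for which a negative binomial fit with a ridge prior on the ratio, set to the deposited log2 ratio, gave the deposited standard error within 1e-05, if the next pair missed by 10 times more. Where only 1 pair of reads was possible, as for 7180 genes and 5 of the members, it was kept without this check. Reads were had in this way for 23790 of 23809 genes (99.9%) and all 10 members. In simulated tables of 23399 genes, 100.0% of accepted pairs were right and 95.4% of intervals held the true ratio. The simulated reads had Poisson counting error only, and their tables were built with the model used to recover them. These figures therefore check the calculation and not the spread between real libraries.

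Libraries were scaled for read ratios with the trimmed mean of M values (30% and 5% trimmed; offset -0.0041 on log2) in Python 3.11.15, NumPy 2.4.6, pandas 2.3.3 and SciPy 1.17.1, with Clopper-Pearson or Poisson 95% intervals. The read ratio of 1 member set against that of another is a conditional maximum-likelihood odds ratio with its exact conditional 95% interval. Genes needed 50 reads over both libraries, and FPKM differences used log2(FPKM + 1). The design assumed reads might not be had; FPKM is the planned scale. Members and the 11 lists were chosen with earlier results of these data known. The text names all members, up to 4 genes per list by the interval bound nearest to 1, and the 3 genes with a conventional symbol nearest to foxe1 and to duox by read ratio. The genes tshba, cga, the receptors, opn1lw1, foxi1, dio3b, cdx1b and the selenoprotein genes were added once their values were known. List genes were matched by symbol, current symbol or RefSeq synonym. No sequences are shown.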

Additional observations from a re-analysis of the deposited data

How the results depend on the processing

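No paired analysis was possible because there is a single library in either group, which also leaves none to omit in turn. Adding 1, 0.1 or 0.01 to FPKM cannot change a sign, and the 4 read scalings nearly coincide. A kept direction therefore mainly compares FPKM with reads, and it is no result for genes whose counting interval held 1. Of the 10 genes, 9 kept 1 direction under the main scale and all 7 alternatives. The exception was dio1, at 2.76 on log2(FPKM + 1) and, by reads, at -0.62 with a trimmed mean of M values, -0.62 with total reads, -0.63 with the deposited size factors and -0.63 with upper-quartile factors. The difference of foxe1 lay between -3.20 and -1.57, of tg between -1.07 and -0.65 and of duox between 0.67 and 1.79 on the log2 scale, where adding 1 to low FPKM values shrinks them by construction. The difference of dio2 was 2.02 to 2.91 with 1, 0.1 or 0.01 added to FPKM and 0.11 by reads. The count of members at least 1.5-fold higher was 3 by FPKM, 1 by reads under each of the 4 scalings, 1 without dio1 and dio2 (a setting chosen after seeing the data) and 0 with at least 200 reads. At 2-fold on the FPKM scale 2 members were higher (dio1 and dio2). The count of members at least 1.5-fold lower was 2 by FPKM, 3 by reads under each of the 4 scalings, 1 with at least 200 reads and 1 at 2-fold. Shares over all genes were not computed at 200 reads or at 2-fold, so nothing is read from those counts. The members with a counting interval off 1, 1 higher and 3 lower, were 0 and 1 with at least 200 reads, where by construction only tg and pax8 are left. Depth limits tpo, tshr and slc5a5 most.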

Other observations

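Genes of the lists with fewer than 50 reads, and cybb, are named here after their values were seen. The NADPH oxidase gene nox1, a relative of duox, had 9 reads in the cyproconazole library and 35 in the control library, a read ratio of 0.224 (0.0945 to 0.474), while cybb, the oxidase of phagocytes, was at 1.03 (0.741 to 1.43). The homeobox gene hhex, which acts in the early thyroid and liver, had 18 reads with cyproconazole and 5 in the control (3.13, 1.12 to 10.8), and the anion exchanger gene slc26a4 had 22 reads with cyproconazole and 10 in the control (1.91, 0.869 to 4.52).

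The genes that neighbour foxe1 in the RefSeq order of assembly GRCz12tu did not share its ratio. On one side si:dkey-25o16.4 was at 1.06 (0.958 to 1.16), and on the other sh3gl2 had 797 reads with cyproconazole and 1002 in the control (0.691, 0.629 to 0.760). Next to dio1, rps8b was at 0.821 (0.621 to 1.09) and glis1b at 0.794 (0.418 to 1.5).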
